A study of Mus musculus with 8 samples.

Results

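Malat1 is a long noncoding RNA gene on mouse chromosome 19, and 9 protein-coding genes that lie around it are described here in lung tumours in which Malat1 was the target of CRISPR activation. The 9 genes, Map3k11, Ehbp1l1, Ltbp3, Frmd8, Slc25a45, Dpf2, Cdc42ep2, Pola2 and Capn1, were taken by symbol from the 32286 gene features of each count matrix, and all 9 symbols were found in each of the 4 libraries. Unique molecular identifiers (UMIs, counts of captured RNA molecules) were summed per library over the cells of each cell class. Tumours were induced in KPC mice, a lung adenocarcinoma model, by lentiviral particles given through the trachea, with dead guide RNAs against Malat1 (mA1) or against Tomato (Con) present from tumour initiation. The largest tumours were taken 16 weeks later, 4 Con and 4 mA1, and were sequenced as 2 Con and 2 mA1 libraries of dissociated cells. Within a library, the pooled samples were marked with 2 hashtags carried by antibodies to CD45 and to MHC class I. All groups carry the KPC background and a dead guide. The alleles behind the name KPC and the element that restricts activation to tumour cells are not given in the labels. Nor is whether the hashtags of a library mark separate tumours or animals. P-values therefore measure the spread between these libraries.

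Dead guide RNAs bring Cas9 to a site without cutting, and an attached activator domain then raises transcription from a nearby start site. Because an activator acts on chromatin, and because Malat1 RNA is itself studied for effects on genes close to it, genes around an activated site are commonly read alongside the target. The 9 neighbours work in unrelated processes. Frmd8 holds iRhom proteins and the sheddase ADAM17 at the cell surface, and Ltbp3 stores latent TGF-beta in the extracellular matrix. Ehbp1l1 links Rab8 to membrane traffic, and Cdc42ep2 binds active Cdc42 at the actin and septin cytoskeleton. Map3k11 is a mixed-lineage kinase that feeds the JNK pathway. Dpf2 is a subunit of the BAF chromatin remodelling complex, and Pola2 is the B subunit of DNA polymerase alpha-primase. Capn1 is the catalytic subunit of the calcium-dependent protease calpain-1, and Slc25a45 belongs to the mitochondrial carrier family.

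On GRCm38, Malat1 spans chromosome 19 from 5795690 to 5802672 on the minus strand. Map3k11 (5688411 to 5702865), Ehbp1l1 (5707369 to 5726576) and Ltbp3 (5740900 to 5758536) lie on the side of lower coordinates. The lncRNA gene Neat1 and then Frmd8 (5850974 to 5875269), Slc25a45 (5877801 to 5885768), Dpf2 (5896516 to 5912871), Cdc42ep2 (5917556 to 5924816), Pola2 (5940543 to 5964238) and Capn1 (5988545 to 6015825) lie on the other side. The nearest start sites to that of Malat1 were those of Ltbp3, at 61.8 kb, and Frmd8, at 72.5 kb, and the farthest was that of Capn1, at 213 kb.

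The promoter of Malat1 is shown because it belongs to the gene the guides were aimed at, and those of Map3k11, Cdc42ep2 and Ehbp1l1 because these members had the highest fold changes between the groups in tumour-like epithelial cells. Each window runs from 250 bases before to 50 bases after a RefSeq start site (GRCm38.p6), 5′ to 3′ on the strand of the gene. Capitals mark 5 motifs searched on both strands, none of which overlap in these windows: the GC box GGGCGG, the CCAAT box CCAAT, the TATA box TATAAA, the cAMP response motif TGACGT and the E-box CACGTG.
Malat1 (chr19:5802623-5802922, minus strand): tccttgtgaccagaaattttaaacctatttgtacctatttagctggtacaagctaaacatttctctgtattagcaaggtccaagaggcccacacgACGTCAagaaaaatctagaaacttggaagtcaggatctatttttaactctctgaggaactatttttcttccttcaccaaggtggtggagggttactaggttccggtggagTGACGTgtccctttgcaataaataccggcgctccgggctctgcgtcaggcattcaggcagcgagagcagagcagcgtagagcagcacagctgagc
Map3k11 (chr19:5688881-5689180, plus strand): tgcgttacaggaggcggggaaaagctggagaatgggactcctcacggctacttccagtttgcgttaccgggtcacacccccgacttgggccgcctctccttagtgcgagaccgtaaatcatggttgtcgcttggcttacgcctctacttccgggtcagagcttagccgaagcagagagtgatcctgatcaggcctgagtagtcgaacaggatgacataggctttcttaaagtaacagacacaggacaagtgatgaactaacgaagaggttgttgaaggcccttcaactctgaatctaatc
Cdc42ep2 (chr19:5924767-5925066, minus strand): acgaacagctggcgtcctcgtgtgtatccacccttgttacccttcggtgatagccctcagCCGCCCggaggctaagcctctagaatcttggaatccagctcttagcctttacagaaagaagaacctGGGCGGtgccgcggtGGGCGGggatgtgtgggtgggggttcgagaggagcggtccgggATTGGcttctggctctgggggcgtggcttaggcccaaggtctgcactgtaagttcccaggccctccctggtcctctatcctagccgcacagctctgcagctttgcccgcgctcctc
Ehbp1l1 (chr19:5726268-5726567, minus strand): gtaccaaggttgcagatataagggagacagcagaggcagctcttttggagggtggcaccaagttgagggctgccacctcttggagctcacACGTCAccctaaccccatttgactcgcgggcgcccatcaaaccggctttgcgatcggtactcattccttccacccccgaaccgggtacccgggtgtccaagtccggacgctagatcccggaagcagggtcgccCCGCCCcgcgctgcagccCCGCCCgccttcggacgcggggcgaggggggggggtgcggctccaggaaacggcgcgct
Malat1 held 2 matches to TGACGT, a sequence present in 7.51% of the 32851 RefSeq promoters, and Ehbp1l1 was the only one of the 9 members with a match, at 1. Cdc42ep2 held 3 GC boxes and 1 CCAAT box, Ehbp1l1 held 2 GC boxes, and the Map3k11 window held no match to any of the 5 motifs. That window is at a start site, 5689131, inside the span of Map3k11, which begins at 5688411, and the sequence at that 5′ end was not searched. For Ehbp1l1 and Capn1, 2 promoters each are listed, of which 1 was used. Across the 9 members, 5 windows had a GC box (35.7% of all promoters), 4 had a CCAAT box (37.4%), none had TATAAA (13.6%) and 1, that of Pola2, had CACGTG (7.15%). CpG dinucleotides ranged from 3 in the Ltbp3 window to 30 in that of Pola2, beside 10 for Malat1 and a median of 7 over all promoters.

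The 4 libraries held 4939 to 10168 barcodes and 48319272 to 74996867 UMIs. After filtering, 22894 cells were kept, of which 22029 fell into 20 classes named from marker genes, with "-like" added to each name. In all, 19 classes had at least 20 cells in every library. Each pair of libraries shared 108 to 330 barcodes, and shared barcodes were left out. The tumour-like epithelial class held 968 cells, 554 of them from Con library 1 and 130, 163 and 121 from Con library 2, mA1 library 1 and mA1 library 2. Its defining markers were present, with Epcam at 727 and Krt8 at 2788 CPM (the gene's UMIs scaled to a total of 1000000) against 30.4 and 24.2 in all other cells.

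Malat1 itself, as the targeted gene, was read first. In tumour-like epithelial cells it stood at 41546 and 33706 CPM in Con libraries 1 and 2 and at 28190 and 50304 CPM in mA1 libraries 1 and 2. The lowest and the highest value were both in mA1 libraries, and the groups overlapped. The log2 fold change, mA1 against Con, was 0.05 ± 0.33 (SE, n = 2 libraries per group; 95% interval -0.79 to 0.90), with an adjusted p of 0.978 in edgeR's quasi-likelihood test over all genes. A rise of the target over the class as a whole was therefore not detectable in these libraries. An EGFP sequence is listed among the features, without its source being named. In epithelial cells with an EGFP UMI, Malat1 was higher than in those without one in 4 of 4 libraries, from 40502 to 47072 CPM in Con library 1, 31692 to 35198 in Con library 2, 25264 to 39383 in mA1 library 1 and 49892 to 50970 in mA1 library 2. Of all genes tested, 10.5% were likewise higher in 4 of 4 libraries and 6.46% lower. Cells with an EGFP UMI were also deeper, with median UMIs of 34497 against 21672, 43030 against 30341, 37442 against 26536 and 39184 against 31028 in the same order of libraries, and the part of depth was not tested. An EGFP UMI was found in 11.4% to 48.5% of epithelial cells (median UMIs 22427 to 37343) and in 4.96% to 10.1% of alveolar macrophage-like cells (12879 to 15748). The members were higher in cells with EGFP in 1 to 3 of 4 libraries.

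The first comparison asked whether the 9 neighbours differed between mA1 and Con tumours in tumour-like epithelial cells, since activation was aimed at tumour cells. None of the 9 members passed the test, at an adjusted p under 0.05, where 0.0444% of the 11250 genes tested did (5 genes, 2 higher and 3 lower in mA1). Before adjustment, 868 of the 11250 genes and 1 of the 9 members had p under 0.05, and DESeq2 also called 0 members. The log2 fold change was positive for 8 of 9 members, with a median of 0.23, beside 50% of all genes and a median of 0.00042. Both mA1 libraries lay above both Con libraries for 6 of the 9 members, where this held for 21.1% of all genes tested and the opposite for 18.9%. The plot of epithelial levels by library shows these values along the chromosome.

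**Figure D1:**
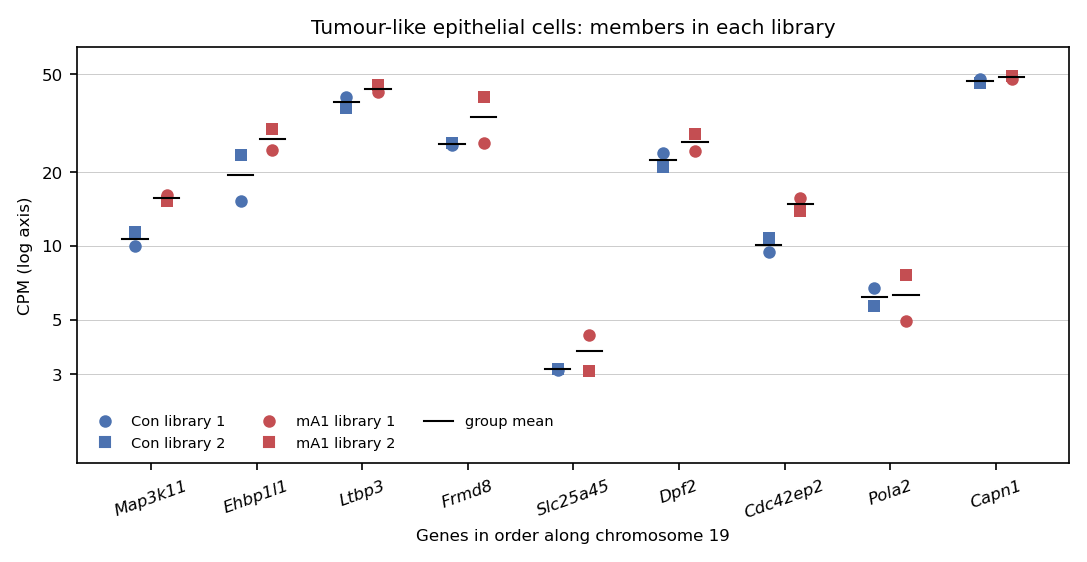
CPM (log axis) of the 9 members in tumour-like epithelial cells, in chromosomal order; each point is 1 library (blue Con, red mA1) and bars are group means. The 2 mA1 libraries lie above the 2 Con libraries for Map3k11, Ehbp1l1, Ltbp3, Dpf2, Cdc42ep2 and Capn1, by a small margin for Capn1 (Con 47.8 and 46.1, mA1 48.1 and 49.4), and no member passed the test.

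Map3k11, the JNK pathway kinase, had the smallest p among the members. It stood at 10.0 and 11.4 CPM in the Con libraries and at 16.1 and 15.3 CPM in the mA1 libraries, from 341 UMIs in all. Both mA1 libraries were above both Con libraries, and the spread within each group was small, at 10.7 ± 0.94 against 15.7 ± 0.60 CPM (SD, n = 2). The log2 fold change was 0.54 ± 0.23 (SE), with a 95% interval of 0.0025 to 1.08. The unadjusted p of 0.0492 became 0.642 after adjustment over all genes in edgeR, and 7.66% of the genes tested ranked at or above it.

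Cdc42ep2, the Cdc42 effector, stood at 9.47 and 10.7 CPM in the Con libraries and at 15.7 and 13.8 CPM in the mA1 libraries, from 322 UMIs. The groups did not overlap, and the log2 fold change was 0.54 ± 0.24 (SE; 95% interval -0.02 to 1.09; edgeR adjusted p = 0.655). Ehbp1l1, the Rab8 partner, stood at 15.3 and 23.6 CPM in the Con libraries and at 24.6 and 30.0 CPM in the mA1 libraries. Here the highest Con and the lowest mA1 library were close, and the log2 fold change was 0.50 ± 0.26 (SE; 95% interval -0.12 to 1.12; edgeR adjusted p = 0.706).

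Frmd8, nearest to Malat1 on the side of Neat1, stood at 25.9 and 26.3 CPM in the Con libraries and at 26.2 and 40.5 CPM in the mA1 libraries. Only mA1 library 2 was high, and without that library the log2 fold change went from 0.34 ± 0.25 (SE) to -0.04. Ltbp3, nearest on the other side, stood at 40.3 and 36.6 CPM in the Con libraries and at 42.3 and 45.3 CPM in the mA1 libraries, a log2 fold change of 0.17 ± 0.17 (SE; 95% interval -0.24 to 0.57). Its groups were ordered but close together. With cells grouped by hashtag within each library, its direction was the opposite, at -0.13. That fit held 3 hashtag groups each of Con and mA1, with 20 to 99 cells per group.

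The nuclear members are Dpf2 and Pola2. Dpf2 stood at 23.9 and 21.0 CPM in the Con libraries and at 24.4 and 28.6 CPM in the mA1 libraries, a log2 fold change of 0.21 ± 0.20 (SE). Pola2, which serves DNA replication, stood at 6.71 and 5.68 CPM in the Con libraries and at 4.96 and 7.63 CPM in the mA1 libraries, so that both mA1 values enclosed the Con values. Its log2 fold change was -0.01 ± 0.35 (SE; 95% interval -0.82 to 0.80), an interval that holds changes in either direction.

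Capn1, the calpain subunit and the member farthest from Malat1, was the most even of the 9. It stood at 47.8 and 46.1 CPM in the Con libraries and at 48.1 and 49.4 CPM in the mA1 libraries, from 1350 UMIs. The log2 fold change was 0.03 ± 0.17 (SE; 95% interval -0.35 to 0.42). Slc25a45, the mitochondrial carrier, rested on 94 UMIs and stood at 3.11 and 3.15 CPM in the Con libraries and at 4.34 and 3.10 CPM in the mA1 libraries. Only mA1 library 1 was higher, and its 95% interval on the log2 scale, -0.73 to 1.20, was the widest among the members.

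Macrophage RNA within the epithelial sums was low and did not separate the groups. The 8 macrophage genes listed (among them Chil3, Lyz2 and C1qa) summed to 622 and 344 CPM in the Con libraries and to 486 and 568 CPM in the mA1 libraries, which is 0.828% to 1.57% of their sum in alveolar macrophage-like cells. No gene of that list was at 0. Haemoglobin RNA did move with the groups: 5 blood genes summed to 56.9 and 99.7 CPM in the Con libraries and to 5.78 and 5.96 CPM in the mA1 libraries, and 2 of them fell in mA1 (edgeR). Immediate early genes, which respond to dissociation, summed to 8745 and 7601 CPM in the Con libraries and to 5726 and 9067 CPM in the mA1 libraries, with 10 of 12 genes negative by fold change and none past the test. Lymphocyte genes summed to 47.7 to 158 CPM, neutrophil genes to 9.54 to 46.5 CPM and cell cycle genes to 136 to 169 CPM over the 4 libraries. The part of any of these in the members' values was not tested.

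Epithelial cells fell into 8 sub-clusters, called states by number, which were formed without the members. Plasma cell genes led state 7 and macrophage genes state 8, and the other 6 are described here. Among the lead genes were Gm20186, Tnip3 and Cxcl15 in state 1 and the haemoglobin gene Hbb-bs in state 2. State 3 had Ccl5, a chemokine gene that is also in the lymphocyte list above, with Onecut2. Tff1 and Tff2 were among those of state 4, Sftpc and Hopx of state 5, and Apoc2, Spp1 and Xist of state 6. The libraries differed in their mix of states. In the order Con library 1, Con library 2, mA1 library 1, mA1 library 2, the percentage of epithelial cells was 9.93, 20, 26.4 and 33.1 for state 1, and 8.48, 13.8, 22.7 and 27.3 for state 4, both higher in mA1. State 6 went the other way, at 10.5, 41.5, 6.13 and 1.65. State 2 was nearly all from Con library 1, at 15.9, 0, 1.23 and 1.65, and states 3 (17.9, 8.46, 8.59 and 10.7) and 5 (30.1, 9.23, 23.3 and 19.8) did not separate the groups. The part of this mix in the class values was not tested.

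Pooled over libraries, Cdc42ep2 was at 4.70, 7.50 and 4.22 CPM in states 1, 2 and 3 and at 15.3, 16.2 and 15.4 CPM in states 4, 5 and 6. Single libraries did not all follow this order. In state 5 Con library 2 was at 2.90 CPM, from 1 UMI, and in state 4 Con library 1 was at 8.72 CPM, beside 6.35 CPM in state 2. Pooled values of Ehbp1l1 ran from 12 CPM in state 5 to 25.9 CPM in state 4, Frmd8 from 22.5 to 31.7 CPM, Ltbp3 from 31.1 to 48.9 CPM and Map3k11 from 9.74 to 14.1 CPM over the same 6 states.

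Within states, 4 had at least 10 cells in every library (states 1, 3, 4 and 5). Both mA1 libraries lay above both Con libraries for 1 of 9 members in state 1 (13.1% of all genes), 4 in state 3 (16.6%), 5 in state 4 (15%) and 5 in state 5 (21.2%). The opposite order was found for 2 members in state 1 (20%), 0 in state 3 (16.7%), 1 in state 4 (16.4%) and 1 in state 5 (15.9%). Ehbp1l1 was the 1 member that had the mA1 libraries higher in each of the 4 states. In state 3 it stood at 11.8 and 12.1 CPM in the Con libraries and at 33.7 and 57.0 CPM in the mA1 libraries, and in state 1 at 20.9 and 18 against 21.5 and 28.4 CPM. The state 3 values came from 22, 4, 10 and 20 UMIs. Cdc42ep2 in state 5 stood at 11.1 and 2.90 CPM in the Con libraries and at 27.6 and 33.2 CPM in the mA1 libraries, from 51, 1, 36 and 25 UMIs, whereas in state 4 its highest value, 28.4 CPM, was in Con library 2. These states are small, and no test was made within them.

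The genes farther out were then set beside the members. Of 34 other genes of the region, 29 were tested, none passed, and 19 were positive and 10 negative, with a median log2 fold change of 0.14. Vps51, a subunit of complexes that tether vesicles on the way to the Golgi, was the 1 gene among them with an unadjusted p under 0.05. It stood at 5.95 and 8.20 CPM in the Con libraries and at 12.2 and 11.7 CPM in the mA1 libraries, a log2 fold change of 0.76 ± 0.28 (SE; edgeR adjusted p = 0.579). By gene midpoint, 11 further RefSeq genes tested within 250 kb of Malat1 had a median of 0.19 with 8 positive, and 27 between 250 and 500 kb had a median of 0.05 with 16 positive. The plot of fold change by distance shows all 47 genes tested, members included.

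**Figure D2:**
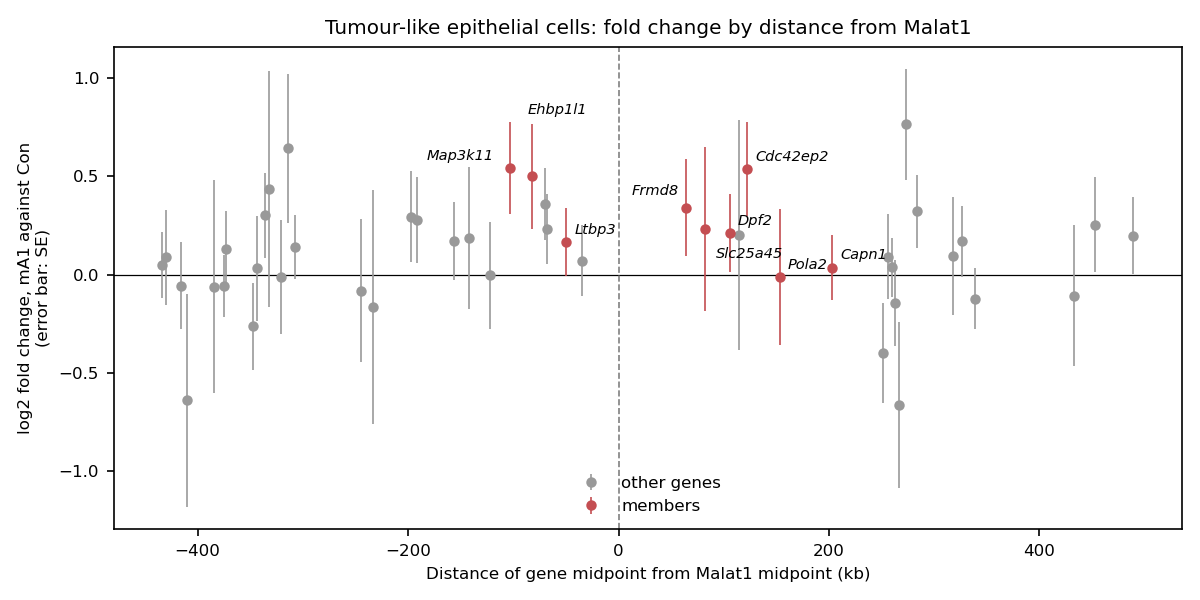
Log2 fold change (mA1 against Con, error bars SE) in tumour-like epithelial cells for the 47 tested genes within 500 kb of Malat1, by distance of gene midpoints in kb; red points are the 9 members and grey points other genes. Members lie between -0.01 (Pola2) and 0.54 (Map3k11), within the scatter of grey points on either side of 0.

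Genes encoded elsewhere whose proteins work with the members were read from the same fit. Of 37 such partner genes, 32 were tested and none passed, with 17 positive, 15 negative and a median of 0.02. For Map3k11, the JNK gene Mapk9 stood at 17 and 14.7 CPM in the Con libraries and at 13.8 and 9.30 CPM in the mA1 libraries (log2 fold change -0.48 ± 0.26, SE; edgeR adjusted p = 0.706), with no overlap and lower in mA1. For Pola2, the catalytic subunit gene Pola1 stood at 5.60 and 5.47 against 4.96 and 3.10 CPM (-0.47 ± 0.37, SE; edgeR adjusted p = 0.794), also lower in both mA1 libraries. For Frmd8, the iRhom gene Rhbdf2 stood at 13.3 and 12.6 against 19.6 and 15.7 CPM (0.43 ± 0.22, SE; edgeR adjusted p = 0.700). Both mA1 libraries lay above both Con libraries for 8 of the 32 partner genes and below for 7, beside 21.1% and 18.9% of all genes. Summed by list, partners were higher in both mA1 libraries for Cdc42ep2 (595 and 617 against 752 and 686 CPM) and Ltbp3 (60.2 and 55.5 against 71.0 and 84.2 CPM). They were lower for Ehbp1l1 (254 and 275 against 235 and 233 CPM) and Pola2 (18.5 and 17.7 against 16.1 and 13.8 CPM), and overlapped for the other 4 lists.

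The second comparison asked the same of the 18 other classes. Activation was aimed at tumour cells, and whether any of these classes, such as AT2-like cells, held tumour cells was not tested. In 125 tests of a member in a class none passed and 2 had an unadjusted p under 0.05, where the share of all genes called was 0% in 10 of the classes. It was 0.0127% in B cell-like, 0.0162% in neutrophil-like, 0.0252% in CD4 T-like, 0.0312% in cDC1-like and 0.0647% in NK-like cells, 0.0404% in Ccl17-led macrophages, 0.0408% in Lef1- and Tcf7-led T cells and 0.077% in plasma cell-like cells. The fold change was positive in 51 of the 125, beside 48.5% to 51.7% of all genes by class, and the lowest adjusted p was 0.583 (edgeR). The 2 were in NK-like and gamma-delta T-like cells, where 419 of 7727 and 381 of 7411 genes had unadjusted p under 0.05. The lists of members tested differed by class, from 4 in AT2-like to 9 in alveolar macrophage-like cells, since low counts were filtered.

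**Figure D3:**
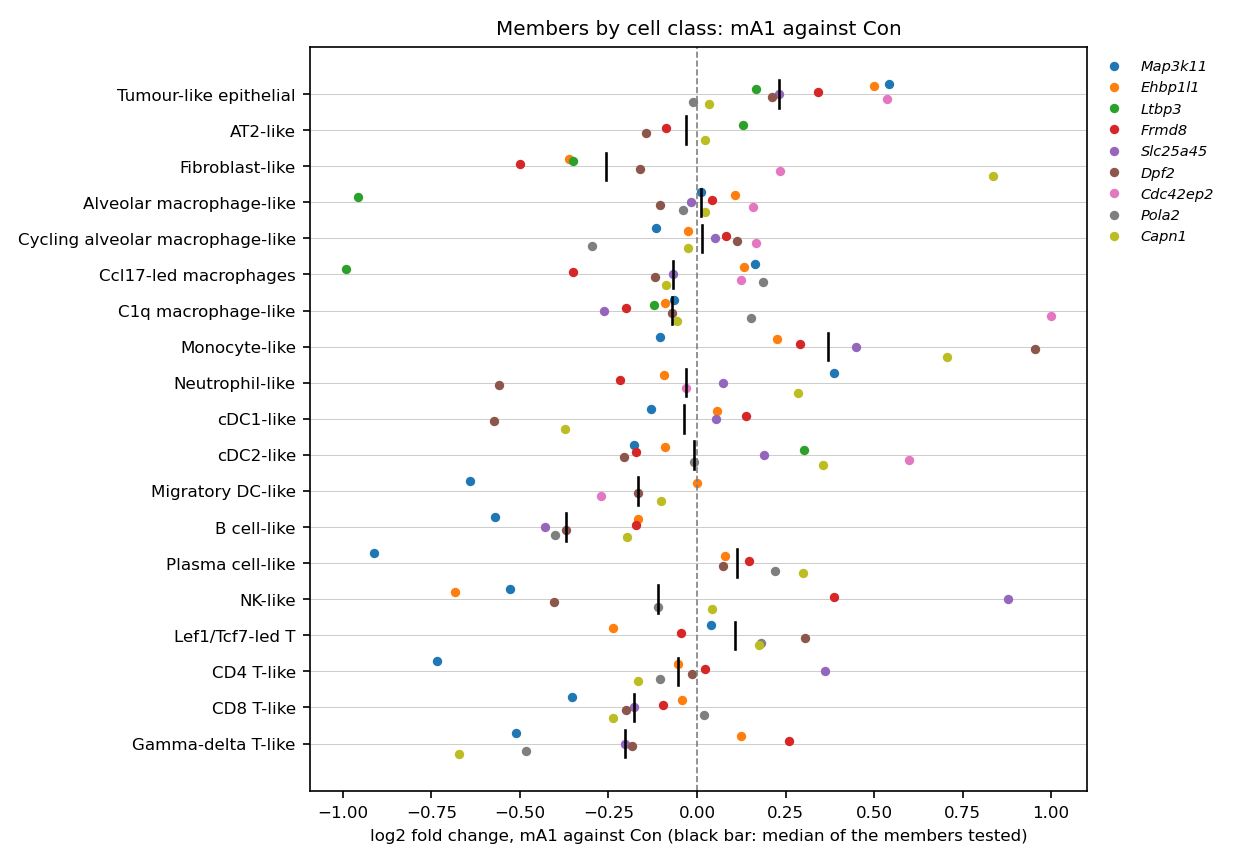
Log2 fold change (mA1 against Con) of each member in each of 19 cell classes; points are members that passed the low-count filter and black bars are their medians. Tumour-like epithelial (8 of 9 positive, median 0.23) and monocyte-like cells (5 of 6 positive, median 0.37) lie to the right, B cell-like cells (0 of 7 positive, median -0.37) to the left, and no point passed the test. Plasma cell-like cells were also 5 of 6 positive (median 0.11), and migratory DC-like cells 0 of 5 (median -0.17). By class, 48.5% to 51.7% of all genes were positive.

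In monocyte-like cells the median over the 6 members tested was 0.37, higher than in the epithelial class, although this class is small, with 43 to 151 cells per library. Dpf2 there stood at 16.0 and 12.2 CPM in the Con libraries and at 27.1 and 30.3 CPM in the mA1 libraries, from 7, 4, 23 and 8 UMIs. Capn1 stood at 25.1 and 18.3 against 34.2 and 41.6 CPM. Neither passed the test, with 95% intervals of -0.25 to 2.16 and -0.19 to 1.61 on the log2 scale. In B cell-like cells all 7 members tested were lower in mA1 by fold change, with a median of -0.37.

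Ehbp1l1 in NK-like cells had the smallest p of any member in any class. It stood at 70.7 and 91.8 CPM in the Con libraries and at 48.2 and 56.2 CPM in the mA1 libraries, and the groups did not overlap. The log2 fold change was -0.68 ± 0.22 (SE; 95% interval -1.12 to -0.24; unadjusted p = 0.00314, edgeR adjusted p = 0.583), opposite in sign to that in epithelial cells. Capn1 in gamma-delta T-like cells stood at 72.9 and 46.8 against 35.6 and 39.3 CPM (-0.67 ± 0.31, SE; unadjusted p = 0.0451, edgeR adjusted p = 0.935), with both mA1 libraries below both Con libraries. Over the 18 classes Map3k11, positive in epithelial cells, was positive in 4 of the 16 in which it was tested, and Cdc42ep2 in 6 of 8.

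The third comparison tested whether the difference between mA1 and Con was itself different in tumour-like epithelial and alveolar macrophage-like cells, with library as a block. None of the 9 members passed, where 0.022% of 13662 genes did (3 genes). Before adjustment, 1 of the 9 members and 807 of the 13662 genes had p under 0.05. For Map3k11, which stood at 32.1 and 35 CPM in Con and at 34.1 and 32.3 CPM in mA1 alveolar macrophage-like cells, the epithelial change exceeded the macrophage change by 0.53 ± 0.24 on the log2 scale (SE; 95% interval 0.01 to 1.05; unadjusted p = 0.0451, edgeR adjusted p = 0.826). The macrophage values differed by less than those of the epithelial class. For Cdc42ep2 the excess was 0.40 ± 0.27 (SE), for Ehbp1l1 0.41 ± 0.27 (SE), for Frmd8 0.26 ± 0.28 (SE) and for Capn1 -0.01 ± 0.19 (SE). Ltbp3 had the largest, at 1.13 ± 0.56 (SE; 95% interval -0.26 to 2.52; edgeR adjusted p = 0.920). It rests on low macrophage values of 4.44, 2.57, 2.66 and 0.938 CPM, highest in Con library 1, which also held the most tumour-like epithelial cells, and the part of epithelial RNA in these values was not tested. With no low-count filter Ltbp3 passed, at an edgeR adjusted p of 0.0328. The same setting took the calls over all genes in the epithelial fit from 5 to 304. The count over all genes for this difference without the filter is not given here.

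Across cell classes the members had separate patterns, given here as a description. Over the 36 pairs of members the correlation of class means (log2 of CPM plus 1, 19 classes) had a median of 0.15 and ran from -0.36 to 0.83, the highest being that of Ehbp1l1 with Map3k11. The class means share the 4 libraries. In the order of classes, neighbouring classes overlapped in their library values for most of the 18 adjacent pairs, with 0 to 2 pairs apart for each member.

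**Figure D4:**
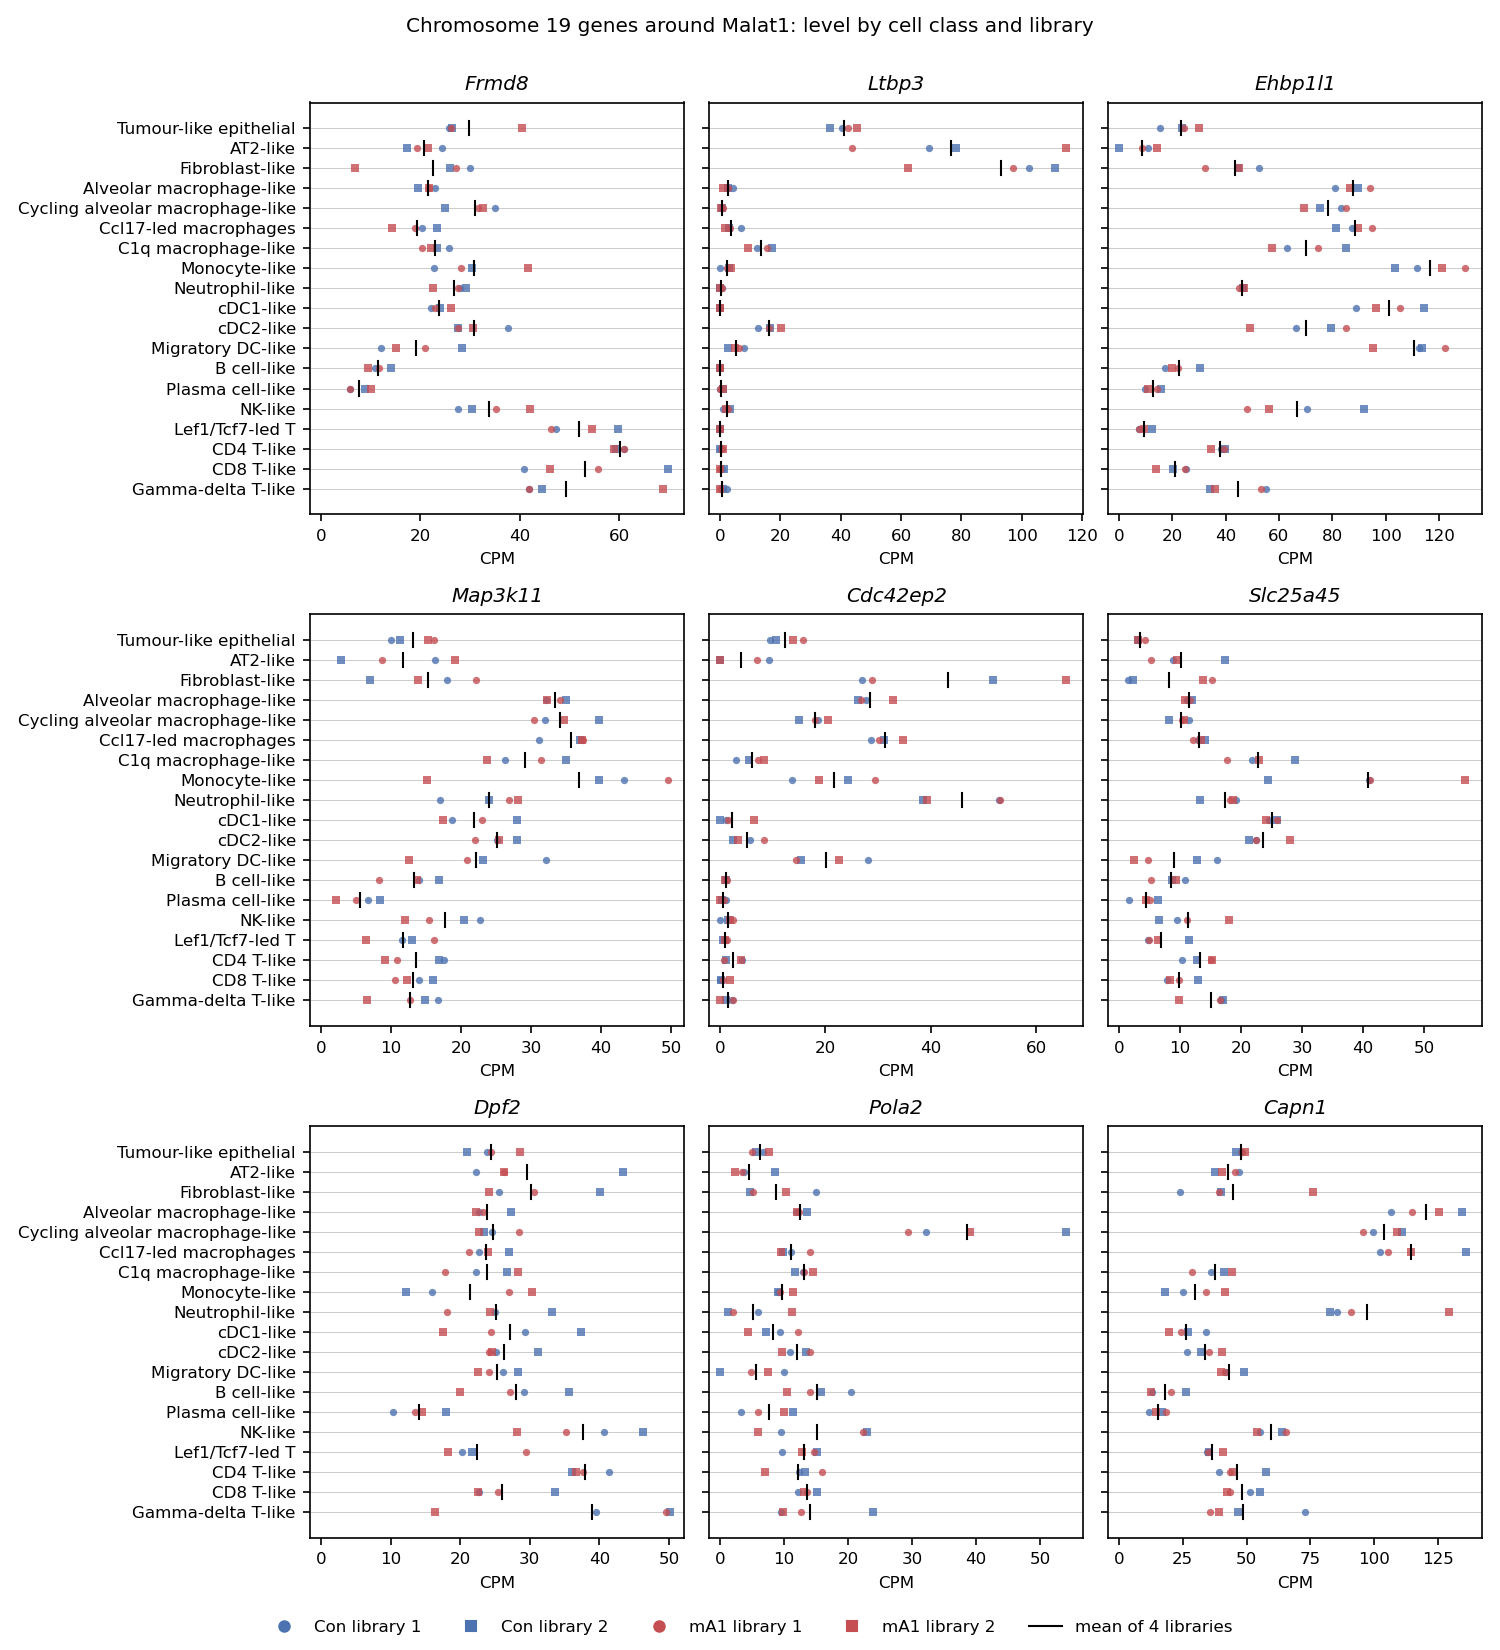
CPM of each member in 19 cell classes; each point is 1 library (blue Con, red mA1, circle library 1, square library 2) and black bars are means of the 4 libraries. Ltbp3 is high in fibroblast-like, AT2-like and tumour-like epithelial cells, Pola2 in cycling alveolar macrophage-like cells, Frmd8 in the T cell classes and Capn1 in alveolar macrophage and neutrophil classes.

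Of the surface and matrix genes, Frmd8 was highest in the T cell classes. CD4 T-like cells stood at 60.1 ± 1.05 CPM (SD, n = 4 libraries), followed by CD8 T-like cells at 53.2 ± 12.7, Lef1- and Tcf7-led T cells at 52.0 ± 6.43 and gamma-delta T-like cells at 49.2 ± 13.1 CPM. These 4 classes overlapped with each other in their library values. B cell-like and plasma cell-like cells were lowest, at 11.5 ± 1.91 and 7.68 ± 2.14 CPM, and tumour-like epithelial cells were 9th, at 29.7 ± 7.20 CPM.

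Ltbp3 was a gene of the structural classes. Fibroblast-like cells stood at 102 and 111 CPM in the Con libraries and at 97.0 and 62.2 CPM in the mA1 libraries, and AT2-like cells at 69.2 and 78.2 against 43.9 and 115 CPM. Tumour-like epithelial cells came next at 41.1 ± 3.65 CPM (SD, n = 4), and every one of their libraries was above every library of 16 other classes. Next were cDC2-like cells at 16.4 ± 3.10 and C1q macrophage-like cells at 13.6 ± 3.55 CPM. No Ltbp3 UMI was found in B cell-like cells (0 of 5647685 UMIs, which allows up to 0.531 CPM), Lef1- and Tcf7-led T cells (up to 0.573 CPM) or cDC1-like cells (up to 1.02 CPM), limits that cover counting error only.

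Of the membrane traffic and cytoskeleton genes, Ehbp1l1 was highest in myeloid classes. Monocyte-like cells stood at 116 ± 11.2, migratory DC-like cells at 111 ± 11.3 and cDC1-like cells at 101 ± 11 CPM (SD, n = 4), and these 3 overlapped. Tumour-like epithelial cells were 14th at 23.4 ± 6.09 CPM, below every library of 13 classes, and AT2-like cells were last at 8.55 ± 6.14 CPM. Cdc42ep2 was highest in neutrophil-like cells, at 46.0 ± 8.16, and fibroblast-like cells, at 43.4 ± 18.7 CPM. It reached 28.4 ± 3.01 CPM in alveolar macrophage-like cells against 6.08 ± 2.32 CPM in C1q macrophage-like cells, with no overlap between these macrophage classes. Tumour-like epithelial cells were 8th at 12.4 ± 2.84 CPM, and all B, T, NK and plasma cell classes were under 3 CPM on average.

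Map3k11 was highest in monocyte and macrophage classes, and below them in migratory DC-like and cDC1-like cells, at 22.2 ± 8.06 and 21.8 ± 4.77 CPM (SD, n = 4). Map3k11 stood at 36.9 ± 15.1 CPM in monocyte-like cells, where mA1 library 2, with 4 UMIs, was at 15.1 CPM and the other 3 libraries between 39.6 and 49.5 CPM. Alveolar macrophage-like cells were at 33.4 ± 1.42, tumour-like epithelial cells 15th at 13.2 ± 2.95 and plasma cell-like cells last at 5.60 ± 2.65 CPM.

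Of the nuclear genes, Pola2 stood apart in a single class. Cycling alveolar macrophage-like cells stood at 32.2 and 54.0 CPM in the Con libraries and at 29.4 and 39.0 CPM in the mA1 libraries, and every value was above every library of the next class. Non-cycling alveolar macrophage-like cells were at 12.5 ± 0.78 CPM (SD, n = 4), and tumour-like epithelial cells were 16th at 6.24 ± 1.17 CPM. Dpf2 was the flattest member, from 38.9 ± 15.8 CPM in gamma-delta T-like cells to 14.1 ± 3.11 CPM in plasma cell-like cells, a ratio of 2.76. Adjacent classes overlapped for Dpf2 throughout the order.

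Capn1 was highest in alveolar macrophage-like cells at 120 ± 12 CPM, Ccl17-led macrophages at 114 ± 15.2, cycling alveolar macrophage-like cells at 104 ± 7.35 and neutrophil-like cells at 97.0 ± 21.8 CPM (SD, n = 4). These 4 classes overlapped, and all lay above every library of the next class, NK-like cells at 59.6 ± 5.81 CPM. Tumour-like epithelial cells were 8th at 47.8 ± 1.36 CPM. Slc25a45 was the 1 member with tumour-like epithelial cells in last place, at 3.43 ± 0.61 CPM, below every library of 15 classes. Monocyte-like cells were highest at 40.8 ± 13.2 CPM, followed by cDC1-like cells at 25.1 ± 0.99 CPM. For Malat1, by contrast, epithelial cells came second at 38436 ± 9624 CPM after NK-like cells at 40534 ± 4706 CPM.

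By the same measure, over 19 classes and 8195 genes with a mean of at least 10 CPM, the genes most like each member were named. They were Wdyhv1 (r = 0.87) and Atxn2l (0.84) for Frmd8, and Rai14 (0.93) for Ltbp3. Ehbp1l1 was most like Sppl2a (0.92) and Arpc4 (0.90), Map3k11 like Capza2 (0.96) and Myo9b (0.94), and Cdc42ep2 like Gda and Tnfaip2 (both 0.88). Slc25a45 was most like Lrrc25 (0.88) and Mknk1 (0.87), and Dpf2 like Cox20 and Socs4 (both 0.89). Pola2 was most like Nasp (0.92), a histone chaperone, and Cdt1 (0.90), a replication licensing factor, and Capn1 like Scyl2 (0.87) and Chp1 (0.84). Class means rest on the same libraries, and these are the best of many candidates, so the values are a description.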

How the data were processed

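Single-cell 3′ libraries of 4 Con and 4 mA1 tumours were analysed as 2 libraries per group. The deposited matrices hold UMI counts made by the authors with Cell Ranger 6.0.1 on mm10, per the submitters' processing notes. Hashtag counts are in the same deposited files. The members and gene lists were chosen with earlier results of these data known.

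Barcodes with at least 500 UMIs, 250 genes and at most 15% mitochondrial UMIs were kept. The share of barcodes over that mitochondrial limit was 15.4% and 17.7% in Con libraries 1 and 2. It was higher in mA1 libraries 1 and 2, at 23.3% and 19.7%, and its part in the results was not tested. Cells with both hashtags (835, by a Gaussian mixture at a posterior of 0.5), cells called by Scrublet (268; 0 in Con library 2, where it was taken not to have worked) and barcodes shared between libraries (964) were left out. Hashtags were not called in every cell, and cells without one were kept. Clustering used scanpy 1.11.5 with scikit-learn 1.9.0 and igraph 0.11.9: 2000 variable genes without Malat1, Neat1, the members and other genes of the region, 30 components, 15 neighbours and Leiden at resolution 2, and at 0.5 for epithelial states. Clusters were named from marker lists and their 10 leading genes, and 865 cells stayed unnamed. The submitters' own cell names may be different.

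UMIs were summed per class and library and compared by the two-sided robust quasi-likelihood test of edgeR 4.0.16 in R 4.3.3, after filterByExpr and TMM scaling, with Benjamini-Hochberg adjustment over all genes of a fit. SE is the log2 fold change divided by the square root of F. In epithelial sums simulated for 11250 genes, with the same dispersion for every gene, 200 genes were changed. Among those that passed the low-count filter, 33.3% of 2-fold and 93.8% of 4-fold changes were recovered. Recovery at the counts of the single members was not tested. Levels (CPM) are a gene's UMIs scaled to 1000000 UMIs of a class and library. Named besides the members are Malat1, Neat1, genes of the region and partner genes with an unadjusted p under 0.05 or otherwise the 3 of a list with the largest fold change, and the 2 genes most like each member over classes, of which 1 is not reported here. Alternatives were each library left out, DESeq2 1.42.0, no low-count filter, RLE scaling, a mitochondrial limit of 10% and a replicate block. Others were hashtag groups (at least 80% of hashtag counts and 20 cells), EGFP-positive cells, AT2-like cells merged and immune-led states (7 and 8) left out. The last were doublets kept and, chosen after seeing the data, shared barcodes kept. Coordinates and promoters are from RefSeq on GRCm38.p6, where all 9 members matched. Guide sequences were not analysed here.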

Additional observations from a re-analysis of the deposited data

How the results depend on the processing

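No member passed the test in tumour-like epithelial cells in any of 15 alternatives, nor in any other class in 11. Of the 9 members, 6 to 9 were positive in epithelial cells, with a median log2 fold change of 0.09 (without mA1 library 2) to 0.37 (without mA1 library 1), and 0.35 with shared barcodes kept. Between epithelial and alveolar macrophage-like cells, 1 member, Ltbp3, passed with no low-count filter and none in the 8 other alternatives. The count over all genes in that unfiltered fit is not given here.

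Over all genes the epithelial count of calls, 5, became 62 with DESeq2, 304 without the filter, 8 in EGFP-positive cells and 0 over hashtag groups. Only part of the 968 epithelial cells entered that last fit. It held 3 hashtag groups of Con (29, 99 and 33 cells) and 3 of mA1 (48, 20 and 21 cells). The replicate block gave 0 calls and turned Malat1 to -0.011. Labels pair no samples, and the deviations of same-numbered libraries had r = -0.11 over 7719 genes.

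Some directions in epithelial cells turned. Leaving out 1 library at a time gave -0.035 to 0.66 for Frmd8, -0.37 to 0.31 for Pola2, -0.0089 to 0.095 for Capn1, -0.46 to 0.44 for Malat1 and -0.20 to 0.29 for Neat1. Pola2 was at 0.0030 with DESeq2, 0.086 with doublets kept and 0.12 with shared barcodes kept. Neat1 was at -0.083 over hashtag groups, -0.0045 with doublets kept and -0.080 with shared barcodes kept. Ltbp3 was at -0.13 over hashtag groups, Slc25a45 at -0.0070 with AT2-like cells merged and Pola1 at 0.081 in EGFP-positive cells. For the difference from macrophages, leaving out libraries gave -0.11 to 0.62 for Frmd8, -0.39 to 0.36 for Pola2 and -0.10 to 0.11 for Capn1. Pola2 was at 0.014 with DESeq2 and 0.15 with shared barcodes kept, and Capn1 at 0.0036 with DESeq2, 0.0027 with RLE scaling, 0.0075 at the 10% mitochondrial limit and 0.092 with shared barcodes kept. The cause was not tested. Slc25a45 and Pola2 rest on the fewest UMIs of the 9 members in epithelial cells, 94 and 180, and had the widest intervals.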
